A study of Sus scrofa with 36 samples.

Results

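Transcripts of 10 skeletal muscle genes (ACTA1, CKM, MB, MYH1, MYH7, MYL1, MYLPF, TNNC2, TNNT3 and TTN) were followed in thyroid glands of 36 pigs on a 1-colour porcine Agilent array. Every probe was taken whose gene name equals one of these symbols or whose description gives the symbol in round brackets, which yielded 80 of the 60305 probes measured. The pigs were growing castrated males of 3 breeds: Creole (CR), Large White (LW) and their F1 cross. Of the 12 pigs of each breed, 6 were kept at 24 °C and slaughtered before the room was warmed, and 6 were slaughtered after the warm period, which the sample labels give as 30 °C and the protocol as 5 days at 32 °C. The 6 groups are therefore CR, F1 and LW at 24 °C and at 30 °C, with 6 pigs and 6 arrays each. All pigs were castrated, and breed and temperature are the factors that the labels give. Temperature cannot be told apart from the time and age at slaughter, nor breed from the families and pens that made up each breed.

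Skeletal muscle shortens when myosin of the thick filament pulls on actin of the thin filament, a step that calcium switches on through troponin. Fast and slow fibres build this machinery from different members of the same gene families, so that MYH1, MYL1, MYLPF, TNNC2 and TNNT3 mark fast fibres and MYH7 marks slow ones. The thyroid itself is made of hormone-secreting follicles, and it lies on the trachea under thin strap muscles of the neck and beside the striated muscle of the larynx and oesophagus. The question put to the data was how far these muscle transcripts were present in the gland samples, in which pigs, and whether they differed with temperature or breed.

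The probes are 60 bases long, and several genes are read by probes of differing sequence, which gave differing results. Shown first are 2 probes of MYL1, the fast alkali light chain of myosin, which share most of their bases and which both moved with the other MYL1 probes from pig to pig (Pearson r of 0.94 and 0.96, group means removed). In all sequences the capitals mark the stretch that the pair has in common.
MYL1 A_72_P730078: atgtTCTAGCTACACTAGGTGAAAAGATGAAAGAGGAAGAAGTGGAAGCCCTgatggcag
MYL1 A_72_P755981: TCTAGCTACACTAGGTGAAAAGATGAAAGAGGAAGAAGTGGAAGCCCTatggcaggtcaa

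The next pair overlaps by 26 bases although the array assigns its probes to different genes, ACTA1 (skeletal muscle actin) and ACTA2 (smooth muscle actin). It is shown because this ACTA1 probe is among those that differed between breeds.
ACTA1 A_72_P733238: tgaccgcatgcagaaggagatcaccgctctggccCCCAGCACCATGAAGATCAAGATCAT
ACTA2 O9213: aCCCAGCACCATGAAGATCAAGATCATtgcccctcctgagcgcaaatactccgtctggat

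Probes of CKM (the muscle creatine kinase, which regenerates ATP) share 22 bases below but differ in how closely they followed MYL1.
CKM A_72_P567564: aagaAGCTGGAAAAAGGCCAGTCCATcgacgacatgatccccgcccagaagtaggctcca
CKM A_72_P650270: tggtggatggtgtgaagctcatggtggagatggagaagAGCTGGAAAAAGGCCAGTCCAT

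For TNNC2, the calcium-binding subunit of fast troponin, and MYLPF, the regulatory light chain of fast myosin, probes on opposite strands were found under the same symbol. Here the capitals of the first probe are the reverse complement of the capitals of the second, over 16 bases in TNNC2 and 38 in MYLPF.
TNNC2 A_72_P070111: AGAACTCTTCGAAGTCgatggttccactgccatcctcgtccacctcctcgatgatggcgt
TNNC2 A_72_P611718: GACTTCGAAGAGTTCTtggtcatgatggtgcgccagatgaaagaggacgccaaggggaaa
MYLPF A_72_P504419: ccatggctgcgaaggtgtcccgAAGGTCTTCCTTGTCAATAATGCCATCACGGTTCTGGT
MYLPF A_72_P035721: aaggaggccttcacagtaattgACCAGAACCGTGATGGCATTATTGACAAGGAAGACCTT

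All levels below are log2 of the median pixel intensity after quantile normalization, on which 1 unit is a factor of 2, and they can be compared between pigs but not between probes. Each array had 72.8 to 80.3% of its probes well above background, by the flag of the scanner software. A probe entered the tests when some group had it well above background in 5 or more of its 6 pigs, which held for 46222 of the 60305 probes and 48 of the 80 muscle probes. The samples were thyroid by their markers: the thyroglobulin gene TG lay between 18.15 and 19.09 in all 36 pigs, and SLC5A5, the iodide transporter of the follicular cell, averaged 16.72. Of the 6 follicular genes tested, 0 were called for temperature or for LW against CR, where 1.18% and 12.9% of all tested probes were called.

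A single animal stood far above all others. Replicate 4 of CR at 24 °C had the highest level of the 36 pigs for 61 of the 80 muscle probes, whereas it was highest for 3.563% of all tested probes. The 80 include 32 probes too dim to test. At least 1 probe of 9 of the 10 genes was highest in this pig, but for MYH7 it was only 1 of 9. MB, the myoglobin gene, had its only probe highest in replicate 5 of F1 at 30 °C. After replicate 4 of CR at 24 °C, replicate 3 of LW at 30 °C was highest for 5 muscle probes and replicate 2 of CR at 30 °C for 4. Of all tested probes, 315 (0.6815%) lay at least 1 log2 unit above the mean of the other 5 pigs of the group in this Creole pig, and 28 of these were muscle probes. SLC5A5 was 1.54 below the other 5 in it and TG 0.12 below. The other follicular genes tested were at 0.53 (TSHR), 0.28 (FOXE1), -0.06 (HHEX) and -1.74 (IYD) from the other 5. The median was -0.09 over the 6 follicular genes and -0.80 over fibroblast and tendon markers. The part of these in the muscle values was not tested.

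**Figure D1:**
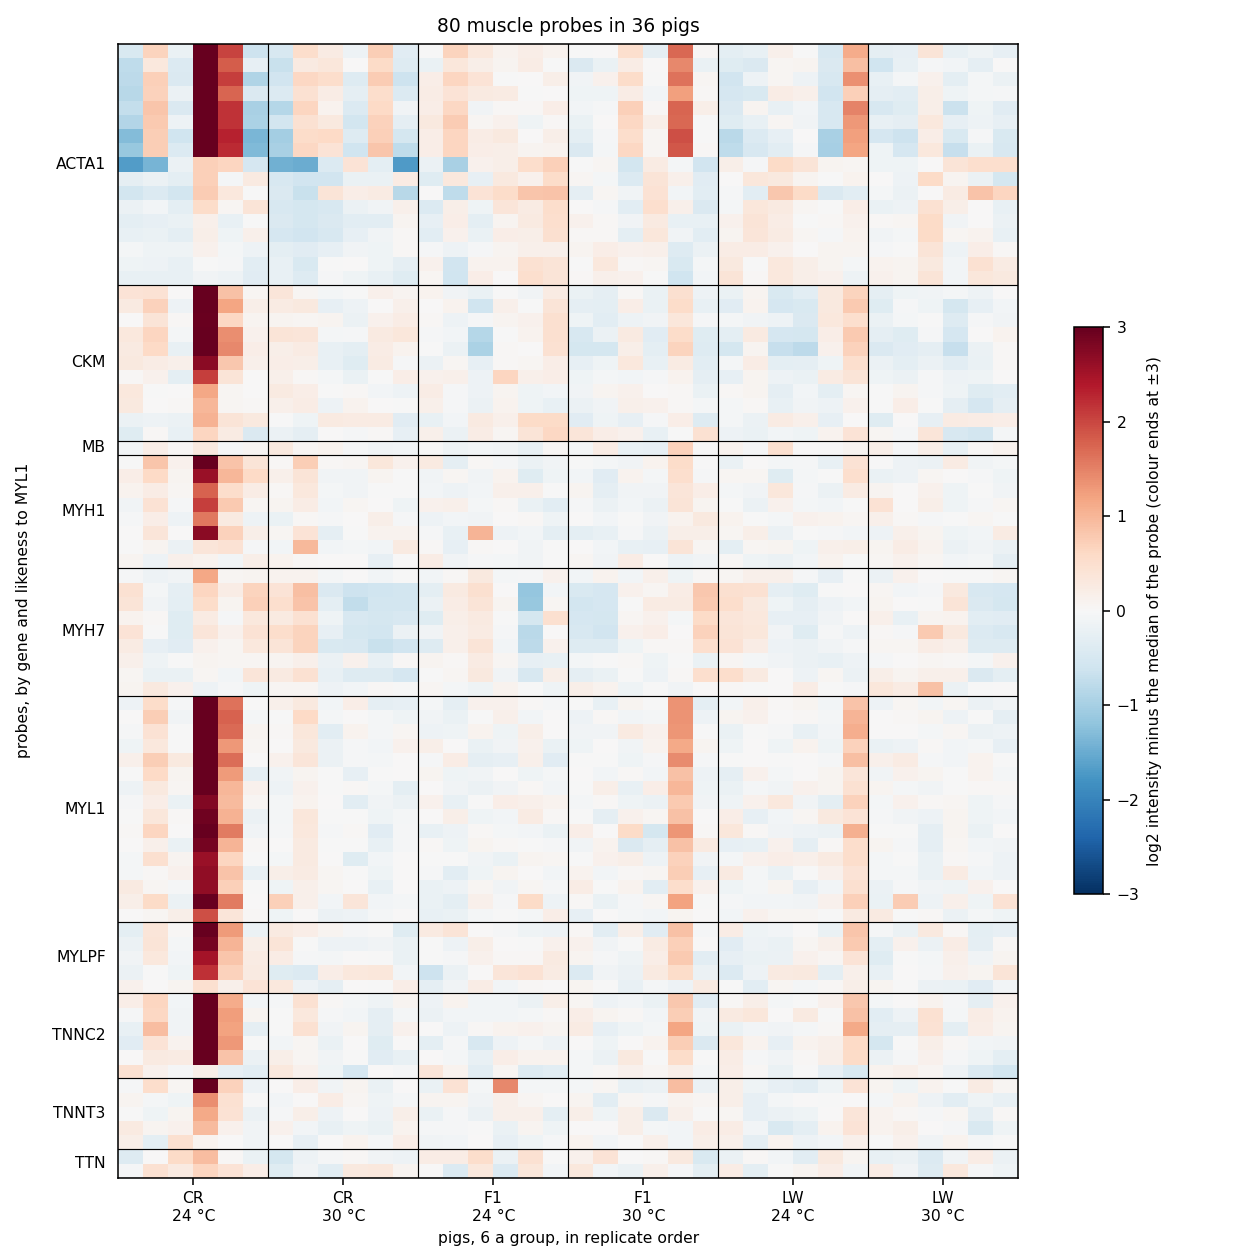
Log2 intensity of the 80 muscle probes (rows, by gene) in 36 pigs (columns, 6 a group), as the difference from the median of each probe, with the colour scale ending at 3 in either direction. The column of CR 24 °C replicate 4 is red through most rows, and weaker red columns are seen for CR 24 °C replicate 5, F1 30 °C replicate 5 and LW 24 °C replicate 6.

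The light chain gene MYL1 gave the clearest contrast between pigs. None of its 16 probes passed the filter on dim signals, since each was well above background on 1 to 10 of the 36 arrays. Their mean was 8.21 in replicate 4 of CR at 24 °C, 6.20 in replicate 5 of the same group, 5.99 in replicate 5 of F1 at 30 °C, 5.67 in replicate 6 of LW at 24 °C, 5.40 in replicate 2 of CR at 24 °C and 5.26 in replicate 2 of CR at 30 °C. The remaining pigs lay between 4.89 and 5.09, so that most glands showed this gene at the level of background. Of the 16 probes, 16, 15, 15, 11, 5 and 2 were well above background in those 6 pigs in the same order, and 0 or 1 in every other pig. The 3 pigs that follow replicate 4 of CR at 24 °C were of 3 breeds and both temperatures.

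The same pigs led when all muscle probes were counted. In replicate 4 of CR at 24 °C 74 of the 80 probes were well above background, in replicate 5 of that group 72, in replicate 5 of F1 at 30 °C 67, in replicate 6 of LW at 24 °C 62 and in replicate 2 of CR at 24 °C 56. The other pigs had 41 to 52. Over all probes, the share well above background was 72.8% in replicate 4 of CR at 24 °C, the smallest of the 36 arrays, 79.8% in replicate 5 of that group, 76.8% in replicate 5 of F1 at 30 °C and 77.3% in replicate 6 of LW at 24 °C. The median intensity of these arrays was 136.5, 168.5, 168 and 140 in the same order, within a range of 132.5 to 173 over all arrays. The part of array brightness in the muscle values was not tested.

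MYLPF was well above background in every pig by its brightest probe (A_72_P616544). Its level was 10.84 in replicate 4 of CR at 24 °C, 9.17 in replicate 5 of that group, 9.13 in replicate 5 of F1 at 30 °C and 8.76 in replicate 6 of LW at 24 °C. In CR at 24 °C the lowest, median and highest levels were 8.24, 8.63 and 10.84, in CR at 30 °C 8.16, 8.32 and 8.58, in F1 at 24 °C 8.30, 8.38 and 8.61, in F1 at 30 °C 8.02, 8.36 and 9.13, in LW at 24 °C 8.10, 8.29 and 8.76, and in LW at 30 °C 7.995, 8.31 and 8.50. All 6 groups overlapped, and the pigs named above were the highest of their groups except replicate 5 of CR at 24 °C, which came after replicate 4.

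ACTA1 encodes the actin of skeletal muscle thin filaments, and its 17 probes were all tested. They are described in 2 sets, 8 probes with Pearson r of at least 0.8 with the MYL1 mean over pigs and the 9 others, a split made after the values were seen. Over the 8 the mean was 11.40 in replicate 4 of CR at 24 °C against a mean of 6.68 in the other 5 pigs of its group, a distance of 4.71. It was 8.61 in replicate 5 of that group, 8.20 in replicate 5 of F1 at 30 °C and 7.71 in replicate 6 of LW at 24 °C, an order that the choice of these probes by their likeness to MYL1 favours. The other 9 ACTA1 probes were brighter, with means over pigs of 8.27 to 13.87, and their average was highest in replicate 6 of F1 at 24 °C (11.83), with the Creole pig the fifth highest (11.66).

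CKM was measured by 11 tested probes, of which 7 had r of at least 0.8 with the MYL1 mean and were therefore bound to be high in the pigs where MYL1 was high. The mean over these 7 was 9.74 in replicate 4 of CR at 24 °C, 7.43 in replicate 5 of that group and 7.08 in replicate 6 of LW at 24 °C, while the other 5 pigs beside replicate 4 averaged 6.80. Its brightest probe, A_72_P567564, moved less, from 9.31 in the mean of those 5 pigs to 10.22 in replicate 4.

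**Figure D2:**
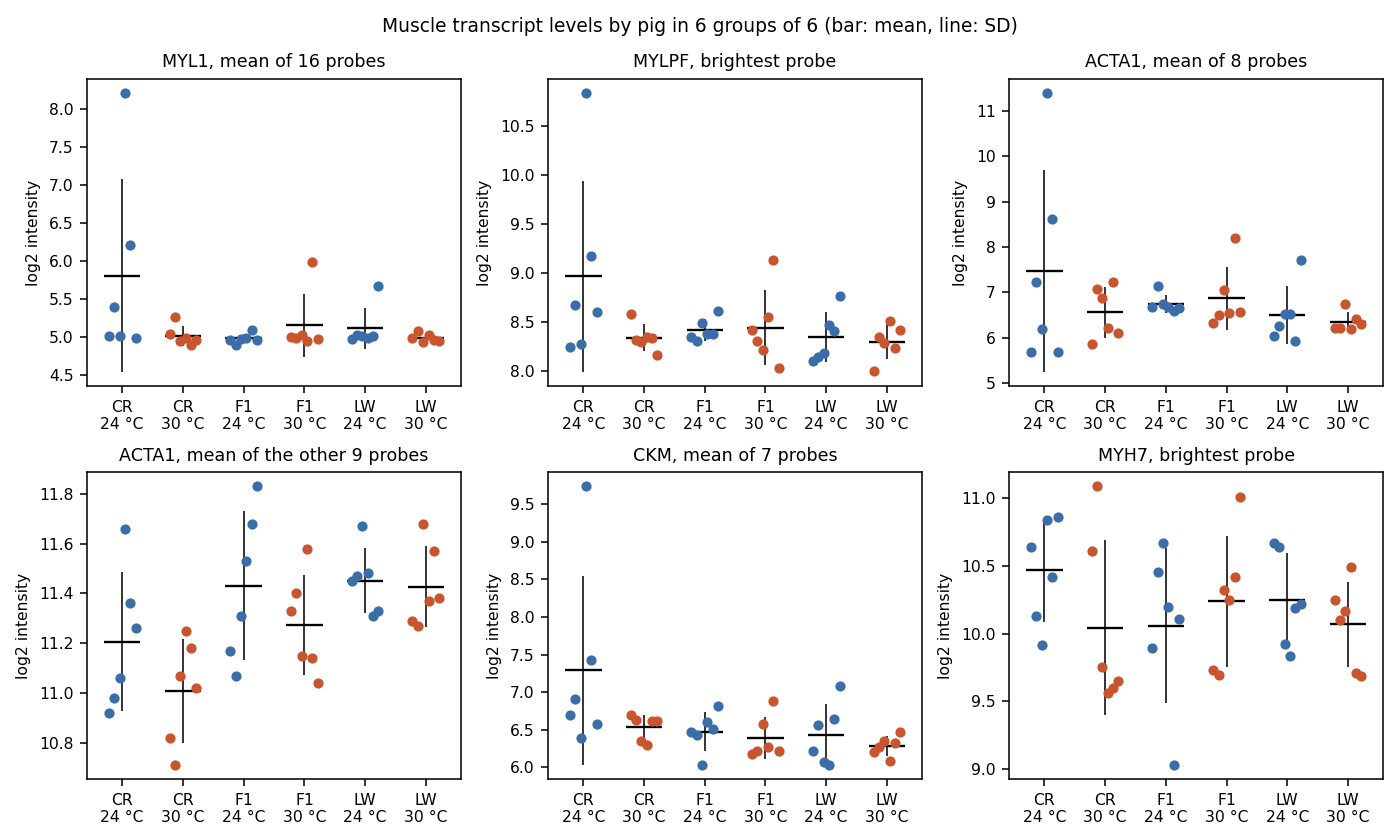
Log2 intensity by pig (points) in the 6 groups of 6, with the mean (bar) and SD (line) of each group, for MYL1, MYLPF, the ACTA1 probes that followed MYL1, the other ACTA1 probes, the CKM probes that followed MYL1, and MYH7. Replicate 4 of CR at 24 °C lies apart at 8.21 for MYL1 and 10.84 for MYLPF, while MYH7 is highest in a CR pig at 30 °C, at 11.09.

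The troponin genes were read by the tested probe nearest to MYL1, chosen for that likeness, and by the brightest probe. For TNNC2, the nearest, A_72_P165811, stood at 9.31 in replicate 4 of CR at 24 °C against a mean of 5.94 in the other 5 pigs, whereas the brightest probe, A_72_P070111, stood at 9.17 against 8.98. The brightest is the probe printed above on the strand opposite to A_72_P611718. TNNT3, the fast subunit that ties troponin to tropomyosin, was at 9.03 against 5.74 by the nearest probe, A_72_P015556, and at 7.13 against 6.28 by its brightest probe, A_72_P535015.

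The heavy chain genes parted from each other. For MYH1, a fast myosin motor, the tested probe nearest to MYL1 (A_72_P619550) gave 8.67 in replicate 4 of CR at 24 °C against a mean of 5.94 in the other 5 pigs, although the brightest probe (A_72_P442365) was highest in replicate 1 of F1 at 24 °C, at 6.09. MYH7, the slow motor that the heart also uses, had 6 tested probes which moved closely together, with Pearson r between pairs of 0.87 to 0.98 after removal of group means. They followed other pigs: the brightest, A_72_P573064, was highest in replicate 2 of CR at 30 °C (11.09) and replicate 6 of F1 at 30 °C (11.01), followed by replicates 6 and 4 of CR at 24 °C (10.86 and 10.84). By group its lowest, median and highest levels were 9.92, 10.53 and 10.86 in CR at 24 °C, 9.56, 9.70 and 11.09 in CR at 30 °C, 9.03, 10.16 and 10.67 in F1 at 24 °C, 9.70, 10.28 and 11.01 in F1 at 30 °C, 9.83, 10.20 and 10.67 in LW at 24 °C, and 9.69, 10.13 and 10.49 in LW at 30 °C. These groups overlapped throughout, and the SD within groups, 0.47, was larger than that of 95.4% of tested probes.

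MB and TTN were covered by few probes. The only MB probe, for the oxygen store of red fibres, was well above background in 2 pigs and ranged from 4.80 to 5.74. TTN, the giant spring of the sarcomere, had its brighter probe (O14051) highest in replicate 4 of CR at 24 °C, at 6.81 against 5.90 in the mean of the other 5 pigs.

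How closely each probe tracked MYL1 was described by Pearson r with the mean of the MYL1 probes over 36 pigs after group means were removed, leaving out the probe itself where it belonged to MYL1. Of the 64 probes of the other genes, 31 had r of at least 0.8, against 14 of 46174 tested probes outside the 10 genes (0.0303%). With the 16 of MYL1 that made 47 of 80, and 23 of the 48 tested probes. The threshold and the pattern were set after the values had been seen, and 2 pigs carry much of each r. Without replicates 4 and 5 of CR at 24 °C, the pigs farthest from the median of MYL1, these 47 probes still had r of 0.55 to 0.96, and Spearman's rho over all pigs was 0.44 to 0.87. The probe just inside the threshold was MYH1 A_72_P608642 at 0.83, and the one just outside was TNNT3 O12914 at 0.80.

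By gene, the likeness ran from 0.88 to 0.98 within MYL1. It was at least 0.8 in 8 of 17 ACTA1 probes, 7 of 11 of CKM, 6 of 8 of MYH1, 5 of 6 of TNNC2, 3 of 5 of MYLPF and 2 of 5 of TNNT3. MYH7 (9 probes), TTN (2 probes) and MB (1 probe) had none that reached it. The pairs printed above differ within a gene: CKM A_72_P650270 had r of 0.92 and A_72_P567564 0.65, TNNC2 A_72_P611718 had 0.97 and the opposite strand A_72_P070111 0.04, and MYLPF A_72_P035721 had 0.78 and the opposite strand A_72_P504419 0.24. For ACTA1, CKM, MYH1, MYLPF, TNNC2 and TNNT3 the brightest tested probe was not the one nearest to MYL1.

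**Figure D3:**
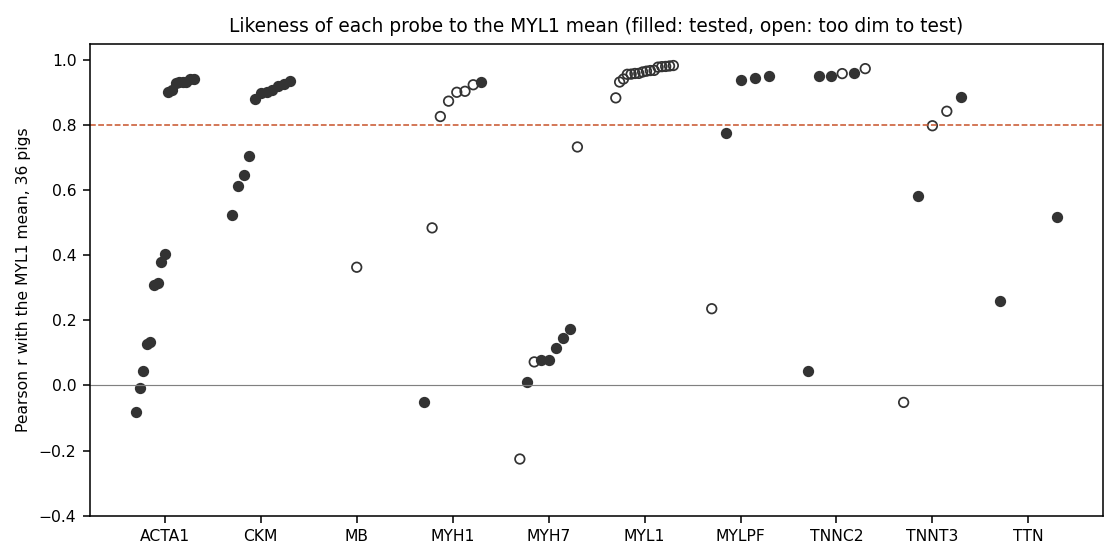
Pearson r of each of the 80 probes with the mean of the MYL1 probes over 36 pigs, group means removed, by gene (filled points were tested, open points were too dim). Probes of ACTA1, CKM, MYH1 and TNNC2 fall into a set near 0.9 and others well below the dashed line at 0.8, and the tested MYH7 probes lie near 0.

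Heat was compared as pigs at 30 °C minus pigs at 24 °C with breed in the model (limma, Benjamini-Hochberg adjustment over 46222 probes). None of the 48 tested muscle probes was called, against 1.18% of all tested probes. An unadjusted p under 0.05 was found for 4 of them and for 4503 of all 46222. The 48 probes read 8 genes, with 17 for ACTA1 and 11 for CKM, and are not 48 separate observations. Lower levels at 30 °C were estimated for 47 of the 48, with a median change of -0.21 on the log2 scale, where 44.42% of all tested probes were negative and their median was 0.009. The smallest adjusted p was 0.465. Without replicate 4 of CR at 24 °C the median change was -0.09 over the 48 probes, and 46 remained negative.

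By gene, the brightest MYLPF probe was at 8.57 ± 0.62 (SD, n = 18) at 24 °C and 8.36 ± 0.25 at 30 °C, a change of -0.22 ± 0.15 (SE) with a limma adjusted p of 0.711. By their brightest probes, TTN changed by -0.19 ± 0.09 (adjusted p = 0.528), MYH7 by -0.14 ± 0.15 (0.867), TNNT3 by -0.08 ± 0.08 (0.838), CKM by -0.07 ± 0.07 (0.857), ACTA1 by -0.07 ± 0.05 (0.753), MYH1 by -0.02 ± 0.04 (0.964) and TNNC2 by 0.02 ± 0.08 (0.984). The brightest probes of ACTA1, MYH1 and TNNC2 did not follow MYL1 (r of 0.05, -0.05 and 0.04). None of these differences exceeded the spread between pigs. For the mean of the MYL1 probes, fitted together with all tested probes, the change was -0.25 ± 0.18 (adjusted p = 0.746), and for MB it was 0.02 ± 0.07 (0.976). Means over all probes of the other genes, fitted the same way, changed by -0.27 ± 0.17 (TNNC2, 0.694), -0.25 ± 0.13 (CKM, 0.580), -0.21 ± 0.17 (ACTA1, 0.772) and -0.20 ± 0.13 (MYLPF, 0.692). The rest changed by -0.15 ± 0.08 (TTN, 0.556), -0.13 ± 0.10 (MYH1, 0.773), -0.11 ± 0.08 (TNNT3, 0.774) and -0.06 ± 0.09 (MYH7, 0.904).

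Within breeds, the estimated heat change of the muscle probes differed in size. In CR all 48 were lower at 30 °C, with a median of -0.42. Of these 17 had an unadjusted p under 0.05, where 2656 of all 46222 tested probes did. None was called by limma, against 0.387% of all probes. Without replicate 4 of CR at 24 °C the median of the 48 in CR was -0.18, with 3 at an unadjusted p under 0.05. In F1 the median was 0.004 with none called (0.383% of all probes) and 1 at an unadjusted p under 0.05. In LW it was -0.11 with none called, where the share over all probes was 0, and none at an unadjusted p under 0.05. Over all 46222 tested probes 4918 in F1 and 1852 in LW had an unadjusted p under 0.05. The test of the difference itself, the interaction of breed and temperature, called 0 probes in all. No muscle probe had an unadjusted p under 0.05 in it, where 2157 of all 46222 tested probes did.

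**Figure D4:**
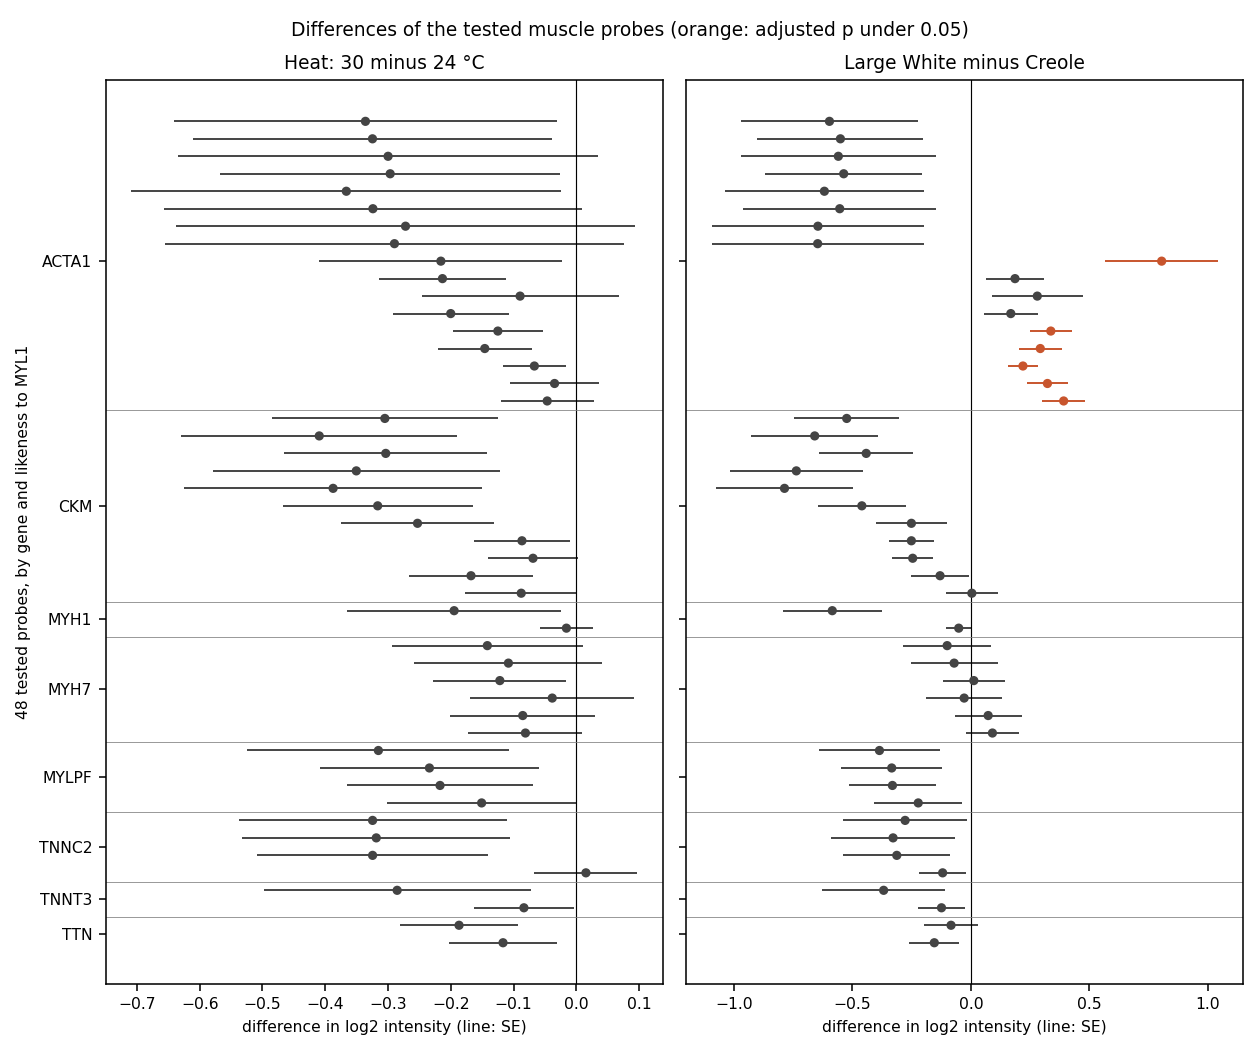
Estimated differences in log2 intensity (points) with their SE (lines) for the 48 tested muscle probes, by gene, for heat (left) and for LW minus CR (right), with probes called at an adjusted p under 0.05 in orange. In the left panel 47 of 48 points lie below 0 and none is orange, and in the right panel the 6 orange points are all ACTA1 probes above 0.

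Between Large White and Creole pigs, 15 of the 48 probes had an unadjusted p under 0.05, where 12107 of all 46222 tested probes did. Of the 48 probes 6 were called, against 12.9% of all tested probes. All 6 were ACTA1 probes higher in LW, where 7.17% of all tested probes were called in that direction. The brightest, A_72_P733238, ranged from 13.73 to 13.99 (median 13.78) in CR at 24 °C, 13.53 to 13.90 (13.69) in CR at 30 °C, 13.88 to 14.10 (13.98) in LW at 24 °C and 13.71 to 14.25 (13.88) in LW at 30 °C. The breeds overlapped. The mean was 13.97 ± 0.15 (SD, n = 12) in LW and 13.75 ± 0.13 in CR, a difference of 0.22 ± 0.06 (SE, limma adjusted p = 0.0147), and within slides of the array it was 0.26, 0.32, 0.20, 0.15 and 0.05. On processed intensity scaled to the 75th percentile this call was lost (0.17, adjusted p = 0.0581), and of the 6 muscle probes called there 4 were higher in LW. The other 5 called probes were higher in LW by 0.29 (A_72_P728918), 0.32 (A_72_P712823), 0.34 (A_72_P790187), 0.39 (A_72_P723131) and 0.80 (A_72_P762162), with adjusted p of 0.0295, 0.0114, 0.00808, 0.00308 and 0.0199.

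The 8 ACTA1 probes that tracked MYL1 had the opposite sign, -0.54 to -0.65, with adjusted p of 0.318 to 0.423, so that ACTA1 averaged over all its probes gave -0.10 ± 0.21 (adjusted p = 0.821). Negative values were estimated for 35 of the 48 muscle probes, with a median of -0.25, and for all 23 tested probes that tracked MYL1, with a median of -0.54. That sign is favoured in these 23, which include the 8 ACTA1 probes, by their choice for likeness to MYL1. MYL1 was highest in replicates 4 and 5 of CR at 24 °C, and replicate 5 stays in the values that follow. Without replicate 4 of CR at 24 °C the median of those 23 was -0.19, and 7 of the 48 were called, the 6 ACTA1 probes and MYH1 A_72_P619550 at -0.35 (adjusted p = 0.0227), which had been at -0.59 with an adjusted p of 0.0590 when all pigs were used. The brightest CKM probe was at 9.38 ± 0.29 in CR and 9.13 ± 0.20 in LW, a difference of -0.25 ± 0.09 (SE, limma adjusted p = 0.0575). With slide as a fixed or random block it was called (-0.24, adjusted p = 0.0342 and 0.0402). For the other brightest probes the differences were -0.33 ± 0.18 (MYLPF, adjusted p = 0.2505), -0.12 ± 0.10 (TNNC2, 0.499), -0.12 ± 0.10 (TNNT3, 0.464), -0.10 ± 0.19 (MYH7, 0.799), -0.08 ± 0.12 (TTN, 0.713) and -0.05 ± 0.05 (MYH1, 0.594). The MYL1 mean differed by -0.36 ± 0.23 (0.329) and MB by 0.01 ± 0.08 (0.950). In bulk tissue, fewer muscle fibres in a sample and less RNA per fibre cannot be told apart.

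The F1 cross gave no called muscle probe against either parent breed. Against CR 13 of the 48 probes had an unadjusted p under 0.05, where 7957 of all 46222 tested probes did. None was called where 3.38% of all probes were, and the median of the 48 was -0.16. Against LW 1 had an unadjusted p under 0.05, where 6187 of all 46222 did. None was called where 1.99% of all probes were, and the median of the 48 was 0.03. The 2 comparisons share the F1 pigs.

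The ACTA1 probes were set against those of the other actins, whose coding sequences are much alike. Of the 9 bright ACTA1 probes 3 shared a stretch of 22 or 26 bases with a probe of ACTA2 or of ACTB (a cytoplasmic actin of all cells), the other 6 shared at most 14, and the 8 that tracked MYL1 shared at most 9 with any probe of another actin. Across pigs, A_72_P733238 had r of 0.93 with the overlapping ACTA2 probe O9213 (group means removed), A_72_P790187 had 0.86 with ACTA2 A_72_P521843, with which it shares 26 bases, and A_72_P723131 had 0.95 with ACTB A_72_P385123, with which it shares 22. High r also occurred with few shared bases: the called probe A_72_P712823 had 0.96 with the same ACTB probe, sharing 9, and the called probe A_72_P728918 had 0.91 with ACTA2 A_72_P556110, sharing 5. The called probe with the largest breed difference, A_72_P762162, followed no other actin as closely. Its highest r was 0.45, with ACTB A_72_P385123. A_72_P248052, a probe that tracked MYL1 with r of 0.94, had -0.06 with O9213.

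The probes of other actins named above had positive LW minus CR differences by limma, but A_72_P556110 was not called (0.23, adjusted p = 0.0732). O9213 differed by 0.22 (adjusted p = 0.00674), A_72_P521843 by 0.40 (0.00039) and A_72_P385123 by 0.37 (0.00631). Of the tested probes, 4 of 8 of ACTA2, 1 of 5 of ACTB, 1 of 3 of ACTC1 (cardiac actin), 1 of 2 of ACTG2 (actin of visceral smooth muscle) and 0 of 1 of ACTG1 (a cytoplasmic actin) were called higher in LW and none was called lower. Over all tested probes 7.17% were called higher in LW. Whether the 6 called ACTA1 probes read ACTA1 transcripts or those of another actin was not tested.

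**Figure D5:**
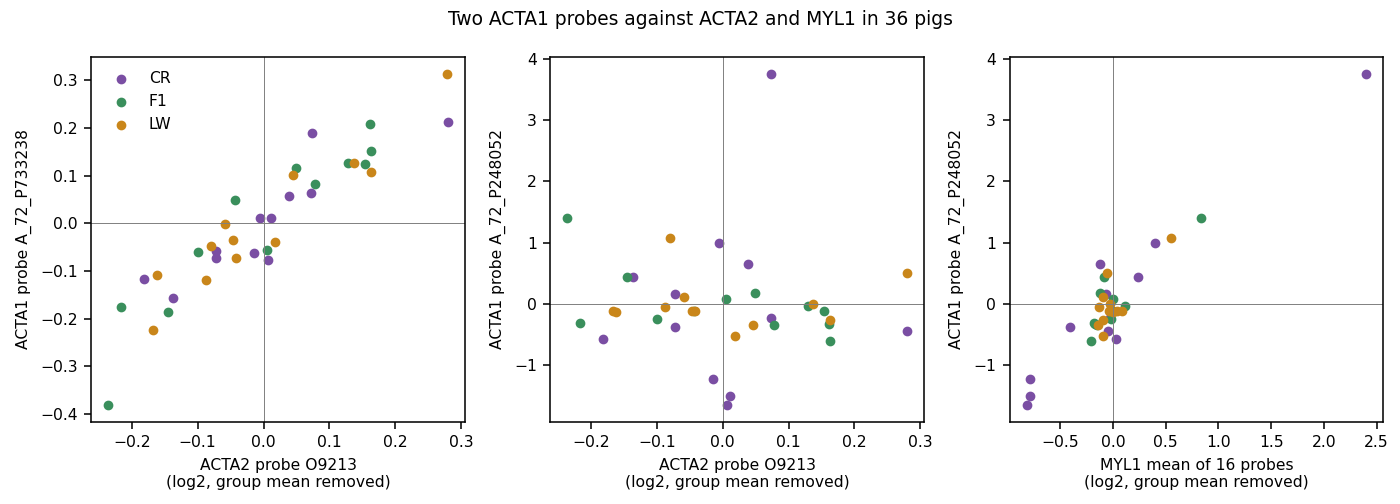
Log2 intensity minus the group mean in 36 pigs, coloured by breed: the ACTA1 probe A_72_P733238 against the ACTA2 probe O9213 (r of 0.93), the ACTA1 probe A_72_P248052 against the same ACTA2 probe (r of -0.06), and A_72_P248052 against the MYL1 mean (r of 0.94). The bright ACTA1 probe lies along a line with ACTA2 and the other along a line with MYL1.

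Between the brightest probes of the 8 genes with a tested probe, 28 pairs were compared over 36 pigs with group means removed. The median r was 0.18. Of these pairs 1 had an adjusted p under 0.05 for r in the 2-sided permutation test within groups: CKM and TNNT3, with r of 0.72 (p = 0.00016, adjusted p = 0.00448) and rho of 0.58 (p = 0.00063, adjusted p = 0.00882). Without the 2 pigs farthest from the median of the mean muscle level (replicate 4 of CR at 24 °C and replicate 6 of LW at 30 °C) r was 0.57. CKM and TNNC2 passed for rho alone (0.60, adjusted p = 0.00882), with r of 0.50 (adjusted p = 0.0689). The TNNC2 probe in this pair, A_72_P070111, had r of 0.04 with the MYL1 mean.

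Other genes of muscle were read by their brightest tested probe, where 1.18% of all tested probes were called for heat and 12.9% for LW against CR. Nothing particular to a list is read from the counts below. Of the fast sarcomere list (MYH2, MYH4, TNNI2, MYBPC2, ACTN3, ATP2A1 and PVALB), 4 of 7 were tested and 0 were called for heat or for LW against CR, with 0 and 2 at an unadjusted p under 0.05 in that order. MYH2, another fast myosin, was at 6.99 in replicate 4 of CR at 24 °C, 1.30 above the mean of the other 5 pigs, and TNNI2, the inhibitory subunit of fast troponin, was 0.95 above. By their brightest tested probe the other 2 did not stand high in that pig, with MYH4 at -0.55 and ATP2A1, the fast calcium pump, at -0.04 from the mean of the other 5. MYH4 had 2 tested probes that differed, with r of -0.34 with the MYL1 mean for the brightest and 0.86 for the other. Of the slow sarcomere list 7 of 8 were tested, none was called for heat, and TNNT1, the slow tropomyosin-binding subunit, was higher in LW by 1.01 (adjusted p = 0.0342). Its relative TNNC1, the slow and cardiac calcium-binding subunit, was 2.39 above the other pigs of its group in the same Creole pig and TNNT1 1.17 above. The other 5 slow genes lay between -0.02 and 0.11, and the median of the list was 0.09.

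Among 15 other genes of the sarcomere and Z-disc, 13 were tested, none was called for heat, and 2 were lower in LW: ACTN2, the muscle actinin, by -0.63 (adjusted p = 0.00108) and TCAP, which caps titin, by -0.29 (0.0254). In the list of excitation and calcium release, 9 of 12 were tested, JPH1 was higher in LW by 0.25 (0.0376) and TRDN lower by -0.26 (0.0218), and SLN, which restrains the calcium pump, was 1.08 above its group in replicate 4 of CR at 24 °C. CASQ2, a calcium store protein of slow and cardiac muscle, was -2.04 from its group there, and the median of the list was 0.30. In the list of muscle energy metabolism, 11 of 12 were tested and 4 were lower in LW: ENO3 by -0.27 (0.0139), SLC2A4 by -0.53 (0.00623), FABP3 by -0.54 (0.0163) and PHKG1 by -0.60 (0.00138). Of adipocyte markers, 6 of 10 were called lower in LW. Of the 10 myogenic and satellite cell genes tested, MEF2C was called, higher in LW.

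The list means were also set against MYL1 over pigs, as a description with group means removed. The r was 0.68 for the fast sarcomere list and 0.56 for the slow one, and lower for the other muscle lists, at 0.28 for sarcomere and Z-disc genes, 0.23 for excitation and calcium release, -0.03 for energy metabolism and -0.003 for myogenic genes. It was 0.34 for Schwann cell, 0.20 for cardiac, -0.21 for smooth muscle, -0.25 for follicular, -0.37 for endothelial and -0.39 for fibroblast and tendon markers, and -0.14 for TG alone. Erythroid markers had 0.20, C cell 0.16, parathyroid -0.05, thymocyte -0.26 and adipocyte markers -0.29. Without replicates 4 and 5 of CR at 24 °C the r was 0.44 for the fast list, 0.24 for the slow one, 0.16 for Schwann cell, 0.02 for cardiac, -0.16 for smooth muscle, -0.27 for endothelial and -0.24 for fibroblast markers. Erythroid markers were then at 0.28, above the slow list. C cell markers were at 0.16, parathyroid at -0.04, thymocyte at -0.09 and adipocyte markers at -0.32. The follicular value turned to 0.05 and that of TG was -0.06. Among Schwann cell and nerve markers, MBP was 2.63 above its group in replicate 4 of CR at 24 °C, the highest value of the 36 pigs, while the list as a whole had a median of -0.21 there. Their part in the muscle values was not tested.

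Genes outside the 10 whose brightest probe was most like the mean of the 8 brightest muscle probes over 36 pigs were TNNI2 (r of 0.85), SLN (0.77), TTC19 (0.75), MYH2 (0.74), DUSP3 (0.71), GRIA3 (0.70), CLTA (0.65), FAM173A (0.64), IARS (0.64) and EEF1D (0.64). Of these, TTC19 and GRIA3 dropped to 0.30 and 0.26 without the pigs farthest from the median of this mean, replicate 4 of CR at 24 °C and replicate 6 of LW at 30 °C, and DUSP3 stayed at 0.76. Few probes outside the 10 genes followed MYL1: 33 of 46174 tested probes (0.0715%) reached r of 0.7. All 33 were highest in replicate 4 of CR at 24 °C, which the choice by r favours, since MYL1 was highest by far in that pig.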

How the data were processed

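RNA of 36 thyroid glands (6 groups of 6 pigs) was hybridised by the authors to 5 slides of a 1-colour Agilent porcine array and read with Feature Extraction 10.10.1.1, per the submitters' processing notes. The deposited scanner files hold the intensity of each spot, and the authors also deposited log2 values after quantile normalization. From the scanner files, control spots were dropped, non-uniform spots set to missing, and median intensity was quantile normalized without background subtraction and put on the log2 scale, as in the authors' methods. Over the 46097 probes with deposited log2 values this differed from them by a median of 0.00556. limma 3.58.1 in R 4.3.3 was fitted over 46222 probes well above background on 5 of 6 arrays of a group, with breed and temperature, or with 6 group means for changes within a breed and the interaction, and Benjamini-Hochberg adjustment. Calls had an adjusted p under 0.05. Pen, slaughter day, sire and dam, which the authors' model holds, were not in the labels, so p-values measure the spread between pigs alone. Each member was named by its tested probe of highest mean intensity, list genes where called or largest, and the most alike genes by r. Members, lists and tests were chosen with earlier results of these data known. Permutations numbered 100000 within groups. Slide, position on the slide, normalization, background, filter, model and each pig left out were tried as alternatives. The fits were tested on simulated data. The number of arrays limits the precision. Gene names came from the array files and reference gene tables. Genome positions and promoters were not used here. Further lists covered parathyroid, thymocyte, adipocyte, fibroblast, endothelial, C cell and erythroid markers, given under the other observations.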

Additional observations from a re-analysis of the deposited data

Results flagged for a closer look

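Pigs that lay apart from the other 5 of their group were sought in 102 groups of 6 over 17 measures of the muscle genes, by dividing the gap to the nearest pig by the whole range of the 6. That ratio passed Dixon's critical value in 20 groups. For a single measure chance passes it in about 1 group in 20, but the measures overlap, and the probes nearest to MYL1 were chosen for following the high pigs, so no chance value is given for the 20. In 9 of the 20 the pig was replicate 4 of CR at 24 °C. Its ratio was 0.876 for the mean of the brightest muscle probes (9.37 against 8.64 in the other 5), 0.668 for the brightest ACTA1 probe, 0.701 for CKM, 0.641 for MYLPF and 0.646 for TNNT3. For the probe nearest to MYL1 it was 0.735 in CKM, 0.728 in MYH1, 0.644 in TNNC2 and 0.770 in TNNT3.

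Replicate 5 of F1 at 30 °C lay apart for the MYL1 mean (0.922, 5.99 against 4.98) and for the nearest probe of MYH1 (0.689), TNNC2 (0.646) and TNNT3 (0.757). Replicate 6 of LW at 24 °C lay apart for the MYL1 mean (0.927, 5.67 against 5.00) and the nearest MYH1 probe (0.659), and replicate 3 of LW at 30 °C for the nearest ACTA1 probe (0.789).

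The other 4 groups were the brightest MYH1 probe with replicate 5 of CR at 30 °C low (0.730) and replicate 1 of F1 at 24 °C high (0.730), the brightest TTN probe with replicate 1 of CR at 30 °C low (0.664), and the MB probe with replicate 3 of LW at 24 °C high (0.741).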

How the results depend on the processing

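Of the values and counts recomputed for every comparison, 689 were scored as the same and 10 as moved. Small shifts in a count, or in a median within the SD between pigs of a group, were scored as the same. The sign of a median was not part of that score. Of the values of single genes 742 kept their direction and call. Another 9 reversed direction, 6 gained a call and 1 lost its call without a reversal. Counted by brightest probe, 1 member (ACTA1) was called between LW and CR. It was 0 on processed intensity scaled to the 75th percentile (ACTA1 0.17, adjusted p = 0.0581), and 2 with slide as a fixed or random block, where CKM was called too (-0.24, adjusted p = 0.0342 and 0.0402). With each pig left out the count was 1 to 2, and CKM was called without replicate 2 of LW at 30 °C, replicate 3 of CR at 30 °C or replicate 6 of LW at 24 °C. With the mean over all tested probes of a gene, ACTA1 turned to -0.10 and the heat change of TNNC2 to -0.24, MYH1 was called lower in LW (-0.32, adjusted p = 0.047), and the median heat change within CR went from -0.24 to -0.54. With a pig left out the heat change of TNNC2 ran from -0.00722 to 0.0472 and turned negative in 7 cases. Processed intensity raised the pairs of genes passing from 1 to 5 and the range of the mean muscle level over pigs from 1.03 to 1.38, and lowered the r of the fast list with that mean from 0.78 to 0.47. On it 6 of 48 muscle probes were again called between LW and CR, 4 of them higher in LW. Without a filter on dim probes none of the 32 untested muscle probes was called. The cause of these shifts was not tested. The splits by likeness to MYL1, the MYL1 mean, the nearest probes and the counts without replicate 4 of CR at 24 °C were chosen after seeing the data. No paired analysis was possible because replicate numbers follow the order of deposit and do not pair pigs of different groups.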

Other observations

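Marker lists of other tissues gave these counts, with heat first and LW against CR second. Over all 46222 tested probes 1.18% and 12.9% were called, and 4503 and 12107 had an unadjusted p under 0.05. Of adipocyte markers 10 of 10 were tested, with 1 (SCD, -0.83, limma adjusted p = 0.0496) and 6 called, all lower. Of erythroid markers 4 of 5 were tested, with 1 called for heat (HBB, -1.004, adjusted p = 0.00142) and 0 for breed. Of endothelial markers 6 of 6 were tested, with 0 and 3 called, the 3 higher in LW, and of smooth muscle markers 7 of 8, with 0 and 3, the 3 higher in LW. Fibroblast and tendon (6 of 8 tested), Schwann cell (5 of 6), thymocyte (5 of 9), C cell (4 of 5) and parathyroid markers (1 of 3) had 0 called in either, with 2, 1, 0, 0 and 0 genes at an unadjusted p under 0.05 for heat and 0, 0, 1, 0 and 0 for breed.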
